A study of Punica granatum with 4 samples.

Results

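Of 27893 genes counted in leaves of drought-stressed pomegranate (Punica granatum), 38 stood at a fairly even level in the libraries from plants given water, 30 µM or 60 µM abscisic acid (ABA) and at least 2 times higher in the library from plants given 90 µM. Counts were first scaled to CPM, the reads of a gene per 1000000 reads of its library, and 0.1 was added to each value. A gene belonged to the set when its mean over the 4 libraries was at least 2 CPM, its 90 µM value was at least 2 times the highest of the other 3, and the highest of those 3 was under 1.69 times the lowest. The 100 genes with the highest mean CPM were left out beforehand. The genes were thus chosen by their CPM in the same 4 libraries that describe them, so the levels below are a description and no test of the 90 µM step was made on them.

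ABA is the hormone that plants build up in drying tissue. In Arabidopsis it binds soluble receptors of the PYR/PYL family, which then block a group of protein phosphatases and so release SnRK2 kinases. The kinases act on ion channels of the guard cells, closing the stomata, and on bZIP transcription factors that switch on genes for protective proteins and for the making of compatible solutes. Sprayed ABA acts on leaves that already make the hormone under drought, so the water-sprayed plants are drought-stressed leaves without added ABA and not unstressed leaves.

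All plants were wild type, of the strain labelled Hongmanao, with an age given as 180 days. They were raised from cuttings, 1 to a pot, for 90 days, and soil water was then lowered to 30% to 35% of field capacity. While dry, they received 5 mL of spray each day, with ABA at 30, 60 or 90 µM or with distilled water alone (0 µM). Each dose has 1 library, and how many plants went into it is not stated in the labels. No library had a replicate, so the difference between 90 µM and any other dose cannot be told apart from a difference between the plants, RNA extractions or libraries themselves.

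Library totals ranged from 22118468 counts (0 µM) to 28366719 counts (60 µM). After division by these totals, the median gene stood slightly lower at 90 µM than elsewhere, with a log2 ratio of -0.14 against 0 µM, -0.11 against 30 µM and -0.12 against 60 µM over the 17535 genes with a mean of at least 2 CPM. A scaling that removes this shift, edgeR's TMM factors, brings those medians to between -0.01 and 0.00. All 38 genes also met the rule under TMM factors, which gave 58 genes in all. The identifiers are RefSeq LOC numbers, and all 38 matched a symbol in RefSeq's table for the assembly ASM765513v2, which lists no product for them. The gene lists drawn up for ABA signalling, drought protection, other hormones, transcription factors, photosynthesis and markers of leaf cell types and other organs all depended on product names or gene symbols. Since 0 of the 38 carried a symbol other than the LOC number, none of these lists could be filled, and neither the tissue nor any pathway was checked by its genes.

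In number, the 38 genes were 0.217% of the 17535 genes with a mean of at least 2 CPM. Before the evenness limit, 98 genes outside the 100 most abundant had a 90 µM value at least 2 times the highest other library, and 60 of these exceeded the limit on spread among the other 3. None of the 100 most abundant genes met both conditions (0 genes). A spread among 0, 30 and 60 µM under the limit was found in 74.3% of the 17535 genes. The number depends on each of the 3 lower libraries being there to compare with: 89 genes qualified without the 0 µM library, 126 without the 30 µM library and 244 without the 60 µM library, and 37 of the 38 were in each of these sets.

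**Figure D1:**
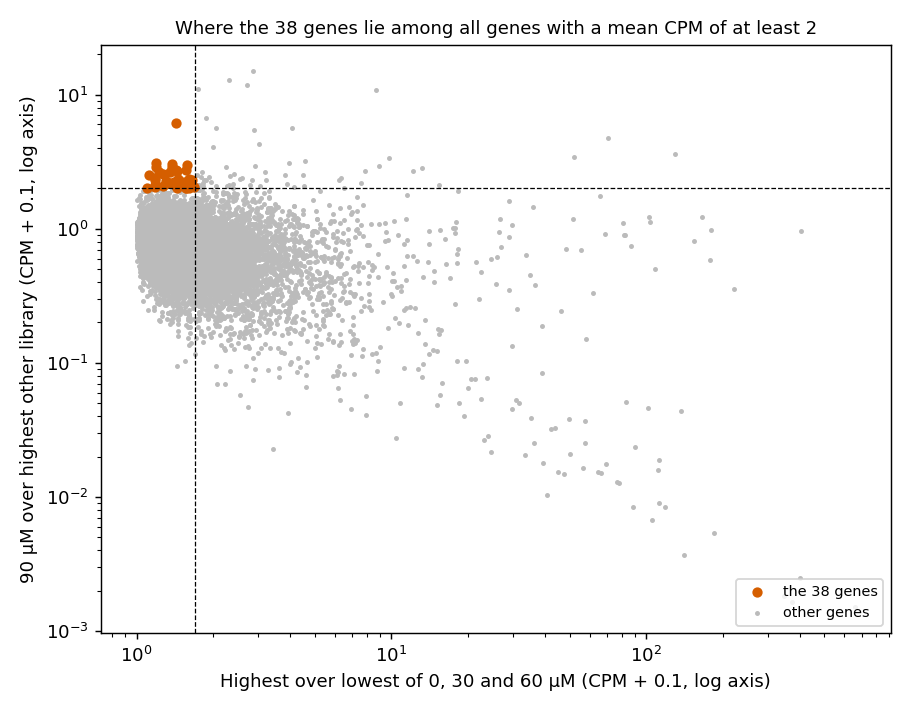
Each point is 1 gene with a mean of at least 2 CPM, the 100 most abundant left out; the horizontal log axis is the highest over the lowest of the 0, 30 and 60 µM values and the vertical log axis is the 90 µM value over the highest of them, both on CPM + 0.1. Dashed lines mark the limits of 1.69 and 2, and the 38 chosen genes fill the upper left corner, where LOC116187411 stands apart at a ratio of 6.12.

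The 38 genes together took 0.210% of all counts at 0 µM (exact 95% binomial interval 0.208% to 0.212%), 0.237% at 30 µM (0.235% to 0.239%), 0.185% at 60 µM (0.184% to 0.187%) and 0.571% at 90 µM (0.568% to 0.574%). The intervals cover counting error only, here and below. The lower 3 shares differ from one another by more than counting error, with the 60 µM library lowest. The 90 µM share lies well above all of them, which the rule fixed in advance for the set and for any part of it. In RNA from whole leaves, more cells of a type and more RNA per cell cannot be told apart. The 5 genes with the most counts made up the larger part, with 0.141%, 0.154%, 0.119% and 0.370% of the libraries at 0, 30, 60 and 90 µM. The other 33 genes followed the same course at 0.0683%, 0.0825%, 0.0662% and 0.201%.

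The steps at 90 µM were mostly modest. The ratio of 90 µM over the highest other library ran from 2.00 to 6.12 with a median of 2.29, where the median of all 17535 genes was 0.800. Of the 38 genes, 24 lay between 2 and 2.5, 10 of them under 2.1, and 3 had a ratio of 3 or more. All 38 genes had a counting interval for this ratio that lay above 1, a property shared by 8.96% of the 17535 genes. The interval lay wholly above 2 for 19 of the 38, against 0.319% of all genes. Because the rule itself used this contrast, these counts describe how precisely the chosen steps were measured and nothing more.

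**Figure D2:**
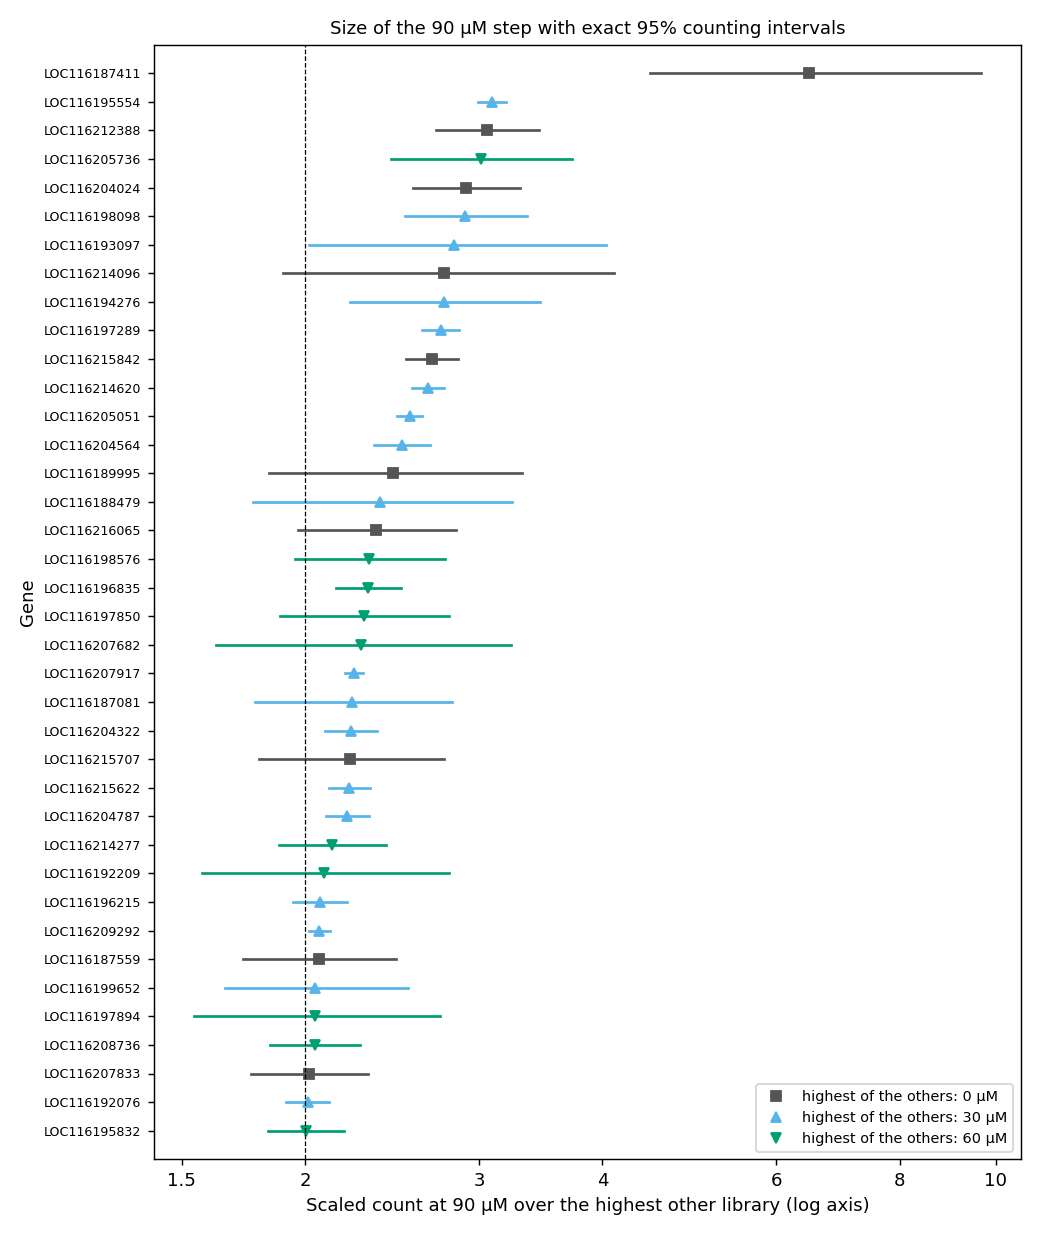
For each of the 38 genes, the point is the count at 90 µM over the count in the highest other library, both divided by library totals, on a log axis, and the line is its exact 95% counting interval; colour and marker name which library was the highest of the others. LOC116187411 stands at 6.47, and 19 of the 38 intervals lie wholly to the right of the dashed line at 2.

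LOC116187411 had by far the largest step. It was counted 32 times at 0 µM, 29 times at 30 µM, 28 times at 60 µM and 249 times at 90 µM, which corresponds to 1.45, 1.21, 0.987 and 9.36 CPM. The 3 lower libraries lay within counting error of one another, and the 90 µM library was 6.47 times the 0 µM library, the highest of the 3 (counting interval 4.47 to 9.67). Its lower bound was above the point value of every other gene in the set, the next being 3.09.

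LOC116195554 came next and was far better counted. It had 184 CPM at 0 µM, 200 CPM at 30 µM, 168 CPM at 60 µM and 618 CPM at 90 µM, from 4074, 4809, 4771 and 16441 counts. Its 90 µM level was 3.09 times that at 30 µM (interval 2.99 to 3.19) and 3.36 times that at 0 µM (3.24 to 3.47). The 3 lower libraries spanned only a factor of 1.19. A step wider than the spread of the lower libraries is required of every member by the rule.

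LOC116212388 had 15.7 CPM at 0 µM, 14.2 CPM at 30 µM, 11.4 CPM at 60 µM and 48.1 CPM at 90 µM. Its ratio over the highest other library was 3.05 (2.71 to 3.45). LOC116204024 had nearly the same shape, with 14.9, 11.2, 10.8 and 43.4 CPM at 0, 30, 60 and 90 µM and a ratio of 2.91 (2.57 to 3.30). In both, water stood highest among the 3 lower libraries and 60 µM lowest. LOC116205736 had 3.62, 2.74, 4.37 and 13.2 CPM in the same order of doses, a ratio of 3.01 over the 60 µM library (2.45 to 3.73). LOC116198098 had 9.86, 10.8, 8.99 and 31.3 CPM and a ratio of 2.91 over the 30 µM library (2.52 to 3.35). These 6 genes had the largest ratios in the set, and in each of them the 90 µM interval lies above 2.

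The genes with over 100 CPM at 90 µM numbered 13. Counting error is small for them, with at least 1001 counts in every library, and 11 of the 13 had an interval wholly above 2. LOC116207917 took the most reads of the set and had 493 CPM at 0 µM, 511 CPM at 30 µM, 363 CPM at 60 µM and 1144 CPM at 90 µM. It was 2.24 times higher at 90 than at 30 µM (2.19 to 2.29), and its 60 µM level was 0.74 times its water level (0.72 to 0.76). LOC116209292 had 351, 409, 321 and 846 CPM at 0, 30, 60 and 90 µM, 2.07 times higher at 90 than at 30 µM (2.02 to 2.12). Its margin over the 2-fold limit is narrow, but at 22492 counts it is still beyond counting error.

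LOC116205051 had 234, 271, 213 and 691 CPM at 0, 30, 60 and 90 µM, and LOC116214620 had 151, 151, 124 and 403 CPM. Their ratios over the highest other library were 2.55 (2.48 to 2.63) and 2.66 (2.57 to 2.77). In LOC116207917, LOC116209292, LOC116205051, LOC116195554 and LOC116214620, the 5 genes with the most counts at 90 µM, the order was the same: 60 µM lowest, then water, then 30 µM, then 90 µM. LOC116214620 differed between water and 30 µM by less than counting error (ratio 1.00, interval 0.96 to 1.05).

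**Figure D3:**
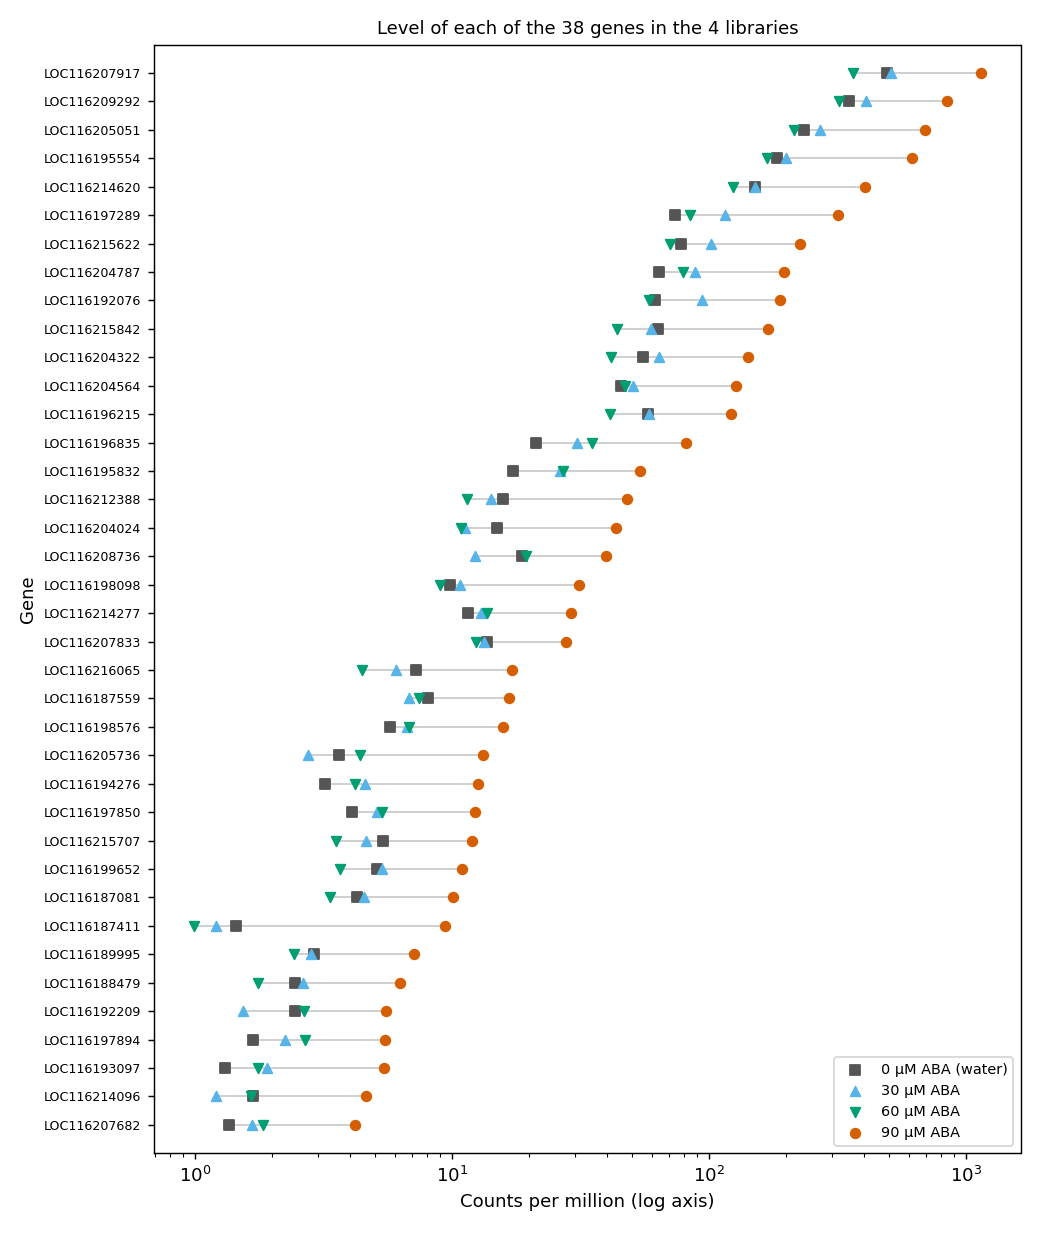
CPM on a log axis for each of the 38 genes, with 1 marker per library (grey square 0 µM, blue upward triangle 30 µM, green downward triangle 60 µM, orange circle 90 µM) and genes ordered by their 90 µM level. The orange circle stands clear to the right in every row, as the rule requires. The order of the other 3 markers varies between genes, with 60 µM at the left end in 10 of the 13 genes above 100 CPM.

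The remaining genes of this upper band included some with a less even start. LOC116197289 had 73.8 CPM at 0 µM, 115 CPM at 30 µM, 84.1 CPM at 60 µM and 316 CPM at 90 µM. It was 4.28 times higher at 90 µM than with water (4.06 to 4.52) but 2.74 times higher than at 30 µM, because the 30 µM library was itself 1.56 times above water (1.47 to 1.66). LOC116192076 was similar, with 61.5, 94.0, 58.5 and 189 CPM at 0, 30, 60 and 90 µM. Its 30 µM level was 1.53 times its water level (1.43 to 1.64), and its ratio of 90 over 30 µM of 2.01 had an interval from 1.91 to 2.12 that includes 2. For these genes "high at 90 µM alone" is a matter of the limit chosen, since 30 µM was also above water.

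LOC116204787 had 63.6, 88.3, 78.9 and 195 CPM at 0, 30, 60 and 90 µM, and both lower ABA doses stood above water, by 1.39 and 1.24 times. LOC116215622 had 77.9, 102, 70.4 and 226 CPM, above water at 30 µM and below it at 60 µM. LOC116215842 was the exception in this band, with water highest of the lower libraries: 63.0, 59.2, 43.6 and 169 CPM. LOC116204564 was the most even of the 13, with 45.3, 50.6, 47.1 and 127 CPM, a spread of 1.12 among the lower libraries and a ratio of 2.51 (2.35 to 2.68). LOC116204322 had 55.5, 63.8, 41.5 and 142 CPM, and LOC116196215 had 58.1, 58.5, 41.0 and 121 CPM. The interval of the LOC116196215 ratio, 1.95 to 2.21, includes 2.

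Of the 17 genes between 10 and 100 CPM at 90 µM, 6 had an interval wholly above 2. LOC116196835 was the one with the most counts, with 21.2 CPM at 0 µM, 30.6 CPM at 30 µM, 35.0 CPM at 60 µM and 81.0 CPM at 90 µM. Its level stood higher at each dose than at the dose below, and the 60 µM library was already 1.65 times water (1.48 to 1.84). LOC116195832, with 17.3, 26.4, 26.9 and 54.0 CPM, had the smallest ratio of the set at 2.00. LOC116194276 had 3.21, 4.57, 4.20 and 12.6 CPM, 3.94 times higher at 90 µM than with water (3.04 to 5.16).

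LOC116207833 was the most even of all 38 below 90 µM. It had 13.7, 13.3, 12.4 and 27.7 CPM at 0, 30, 60 and 90 µM, a spread of 1.10, and its 90 µM level was 2.02 times water (1.77 to 2.32). LOC116208736 went differently at 30 µM, with 18.7, 12.2, 19.3 and 39.5 CPM: the 30 µM library was 0.65 times water (0.56 to 0.76), while 60 µM and water lay within counting error. LOC116216065 had 7.23, 6.03, 4.48 and 17.1 CPM, and its 60 µM level was 0.62 times water (0.49 to 0.79). LOC116214277 had 11.6, 13.0, 13.6 and 29.1 CPM, with neighbouring lower doses within counting error. The other 7 genes of this band, LOC116187081, LOC116187559, LOC116197850, LOC116198576, LOC116199652, LOC116215707 and the already described LOC116205736, had 10.1 to 16.6 CPM at 90 µM, and LOC116205736 alone of these 7 had an interval wholly above 2.

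The 8 genes under 10 CPM at 90 µM are the least certain, with between 28 and 76 counts in each lower library. Besides LOC116187411, LOC116193097 had an interval above 2. It had 29, 46, 50 and 144 counts at 0, 30, 60 and 90 µM and a ratio of 2.83 over the 30 µM library (2.02 to 4.04). LOC116214096 had 37, 29, 47 and 123 counts and a ratio of 2.77 with a wider interval of 1.90 to 4.11. LOC116189995, LOC116188479, LOC116192209, LOC116197894 and LOC116207682 had 111 to 189 counts at 90 µM, and the lower bounds of their ratios lay between 1.54 and 1.84.

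Against water alone, the 38 genes were 2.02 to 6.47 times higher at 90 µM, with a median of 2.78, where the median of all tested genes was 0.904. Of the 38 genes, 15 were at least 3 times and 3 at least 4 times the water level, the latter being LOC116187411, LOC116197289 and LOC116193097. The shares of all tested genes at these levels were not counted. The counting interval of 90 µM over water was wholly above 2 for 26 of the 38 genes, against 2.87% of all tested genes. For 90 over 30 µM it was above 2 for 25 genes (2.22% of all), with a median ratio of 2.51, and for 90 over 60 µM for 27 genes (2.42% of all), with a median ratio of 3.01. The rule used each of these contrasts and the 3 comparisons share the 90 µM library, so the counts are given for their size alone.

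How the lower libraries were ordered was not set by the rule, which limited only their spread. The 60 µM library was the lowest of the 3 in 21 of the 38 genes (55.3%), water in 12 and the 30 µM library in 5 (13.2%). Among the 12933 other genes with a spread under the same limit, 60 µM was lowest in 36.5%, water in 26.7% and 30 µM in 36.8%. The 30 µM library was the highest of the 3 in 18 of the 38 genes (47.4%), against 31.5% of those other genes. These shares differed by level. In the 13 genes over 100 CPM at 90 µM, 30 µM was highest in 12 and 60 µM lowest in 10. In the 17 genes from 10 to 100 CPM these numbers were 4 and 8, and in the 8 genes under 10 CPM they were 2 and 3. The 12933 other genes were not split by level. Whether other genes at over 100 CPM show the same order was therefore not examined. The counts of genes lowest at 0, 30 and 60 µM were the same under TMM factors. Each order rests on 1 library per dose, and the genes are not independent of one another, so no test was made of these shares.

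**Figure D4:**
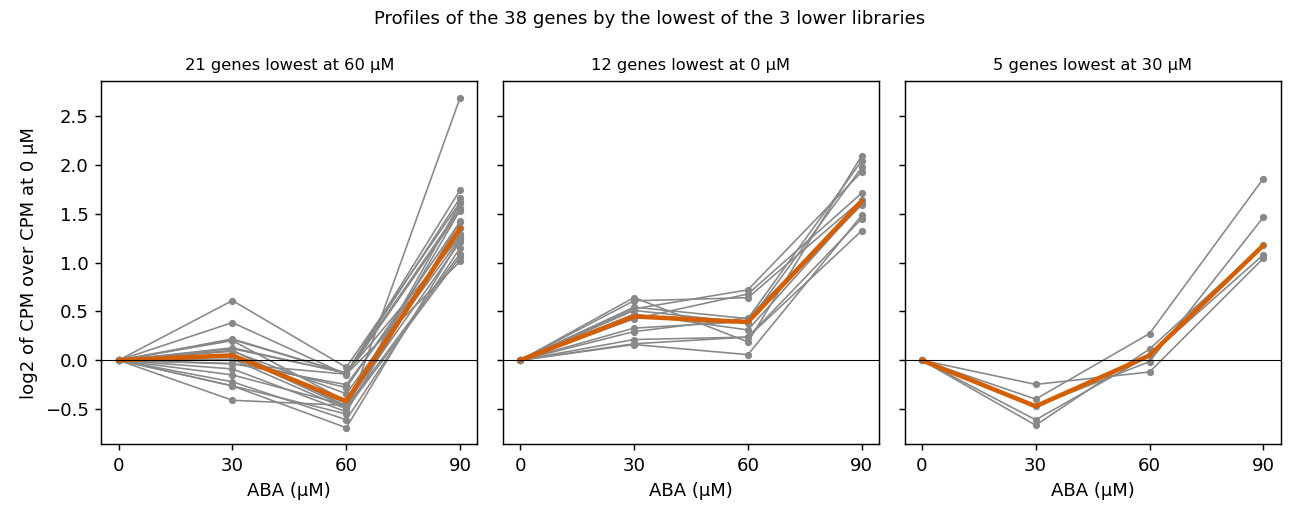
Grey lines join the log2 of CPM over CPM at 0 µM across the 4 doses for each gene, in panels by which of the 3 lower libraries was lowest, and the orange line is the median of the panel. In the 21 genes lowest at 60 µM the median was 0.05 at 30 µM, -0.42 at 60 µM and 1.36 at 90 µM; in the 12 genes lowest with water it was 0.45, 0.39 and 1.63.

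Several of the small differences below 90 µM were larger than counting error. For 30 µM against water, 13 of the 38 genes had an interval wholly above 1 and 3 wholly below it, where 26.2% and 32.4% of all tested genes did. For 60 µM against water, 7 lay above and 14 below (28.4% and 34.7% of all). For 60 against 30 µM, 4 lay above and 18 below (33.8% and 33.2% of all). The rule limited the spread of these 3 libraries in the 38 genes, whereas 74.3% of all tested genes met that limit. The shares of all genes are therefore not a matched comparison. In 8 genes, all 3 lower libraries lay within counting error of each other: LOC116187411, LOC116193097, LOC116214096, LOC116189995, LOC116198576, LOC116207682, LOC116187559 and LOC116207833. LOC116207833 had the most counts of these 8. Most of them lay under 10 CPM at 90 µM, where counts are few and the intervals widest, so lying within counting error is no measure of evenness. The share of all tested genes with this property was not counted.

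Sorting the genes by their lowest library groups them by value alone, and the 8 genes with lower libraries within counting error are found in all 3 groups. In LOC116207917 and LOC116215842 the 60 µM level lay below water by more than counting error. In LOC116197289, LOC116196835, LOC116204787 and LOC116195832, both lower ABA doses lay above water by more than counting error. Of the 12 genes lowest with water, 7 had a higher CPM at each dose than at the one below. The rule fixed the last step, to 90 µM. A rising order of the 3 lower libraries was found in 18.4% of the 38 genes. It was found in 14.3% of the 12933 other genes with a spread under the same limit. The 7 genes are LOC116196835, LOC116195832, LOC116214277, LOC116198576, LOC116197850, LOC116197894 and LOC116207682. LOC116196835 alone had both lower steps beyond counting error. In LOC116195832 this held for 30 µM against water and not for 60 against 30 µM, and in the other 5 neither step lay beyond it. In the 5 genes lowest at 30 µM, LOC116208736, LOC116205736, LOC116192209, LOC116187559 and LOC116214096, the median log2 against water was -0.47 at 30 µM, 0.05 at 60 µM and 1.18 at 90 µM.

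Genes close to the limits show how thin the border is. At the 2-fold limit, LOC116195832 (2.00) and LOC116192076 (2.01) were just inside. LOC116190324, with 72.8, 92.5, 73.4 and 185 CPM at 0, 30, 60 and 90 µM, also rounds to 2.00 and was just outside, and LOC116208318 was outside with 41, 61, 90 and 171 counts. At the evenness limit, LOC116192209 (1.67) and LOC116196835 (1.65) were inside. LOC116187935 (1.72), with 19.1, 11.6, 11.1 and 48.6 CPM, was outside despite a ratio of 2.53, as was LOC116192218 (1.74). At the limit on the mean, LOC116207682 (2.26 CPM) and LOC116214096 (2.29 CPM) were inside. LOC116199440 (1.72 CPM) and LOC116190304 (1.47 CPM, with 15, 21, 22 and 95 counts and a ratio of 3.77) were outside.

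Features that the rule did not use were then set beside those of all tested genes. All 38 genes were protein-coding, as were 97.6% of the 17535 tested genes, and 0 of the 410 tested lncRNA genes were among them. A single RefSeq transcript was listed for 27 of the 38 (71.1%), against 64.9% of tested protein-coding genes. In the RefSeq gene order, 37 of the 38 were placed on a chromosome and 0 pairs were direct neighbours. The closest pair, LOC116196215 and LOC116195554, had 70 genes between them. The set is sparse in this order, with 37 members among 25529 genes, and how many pairs a set of this size would hold was not worked out. No other sets were counted, so the 0 pairs are a description and not a trait of these genes.

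Of 74 flanking genes, 50 had a mean of at least 2 CPM, and their median ratio of 90 µM over the highest other library was 0.824, close to the 0.800 of all tested genes. One flanking gene (1 of 50) had a ratio of at least 2, against 0.565% of all tested genes. It is LOC116195364, next to LOC116195832, with 2711, 6578, 20713 and 42395 counts at 0, 30, 60 and 90 µM. Its counts were higher at each dose than at the one below, while LOC116195832 stood within counting error between 30 and 60 µM, and it is among the 100 most abundant genes. LOC116197060, beside LOC116196835, had a ratio of 1.54, from 202, 178, 411 and 595 counts.

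The 38 genes can be set beside 2 like sets under the same limits. Genes high at 60 µM alone numbered 88, with a median ratio of 2.33 over the highest other library, against 2.29 for the 38. The largest there was 56.5-fold, LOC116195227 with 14, 15, 1422 and 21 counts at 0, 30, 60 and 90 µM, so that set includes a gene nearly silent elsewhere, while the largest ratio among the 38 was 6.12. Genes low at 90 µM alone numbered 248, with a median of 0.424 times the lowest other library. Under TMM factors the 3 sets held 58 genes high at 90 µM, 85 high at 60 µM and 179 low at 90 µM. The split between high and low at 90 µM thus depends on the scaling, with the low set larger under both, and these differences in number have no replicate check.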

How the data were processed

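RNA was taken from leaves with TRIzol and made into libraries with a NEBNext Ultra kit, per the labels' protocols. The values the authors deposited are raw read counts per gene, not normalized, in 4 libraries, 1 per dose. FastQC, HISAT2 and featureCounts are named in the submitters' processing notes. Versions, genome build, strand setting and the handling of reads that map to several places were not given in the sources used here, so reads shared by near-identical or overlapping genes may have been split or dropped, and no coordinates are printed. CPM used column totals. Ratios carry exact (Clopper-Pearson) 95% conditional binomial intervals, computed in scipy 1.17.1, which cover counting error only; PCR copies are not independent molecules. With 1 library per dose and genes chosen on these values, no test was made. Alternative scalings used edgeR 4.0.16 and DESeq2 1.42.0. The rule and interval were also run on simulated data. No result of that run is given here, so it is no evidence on how the rule performs in these libraries. With 1 library per dose, differences between plants or libraries remain unmeasured. The planned rule for named genes took the members with the largest ratios, the highest levels, the narrowest intervals and those nearest each limit; because the set is small, all 38 are named. LOC116195364, LOC116197060, LOC116195227 and the genes outside the set that are named under Other observations fall outside that rule. They were chosen after their values were seen. The RefSeq table (ASM765513v2) was used for names, class, transcripts listed and gene order. Of the 27893 identifiers, 27509 matched a symbol. Columns of other samples numbered 0. Protein and promoter sequences were not used here. The members and lists were chosen with earlier results of these data known.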

Additional observations from a re-analysis of the deposited data

How the results depend on the processing

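The number of genes depended most on which limits and libraries were used. Against 38 as reported, TMM factors gave 58 and DESeq2 size factors 61, each including all 38. A counting interval wholly above 2 left 19, and a 3-fold limit left 3, while a 1.5-fold limit gave 147. Without the 0 µM library 89 genes qualified, without the 30 µM library 126 and without the 60 µM library 244. In each of these runs, both the ratio and the evenness limit had 1 lower library fewer. The mean CPM and the 100 most abundant genes were also taken from the remaining libraries. The remaining alternatives gave 27 to 53 genes: a pseudocount of 1 (38, sharing 30), a mean of at least 1 CPM (44) or 5 CPM (30), a spread under 1.5 (27) or 2 (53), and the 100 most abundant genes kept in (38). The median log2 ratio of the 38 genes was 1.19, and 1.30, 1.31 and 1.12 under TMM factors, DESeq2 size factors and a pseudocount of 1. No pair of neighbours appeared under either other definition (0 pairs). The alternatives for promoter motifs and similar proteins were not run, as sequences were not used here. The scaling comparison for the like sets and for the order of the lower libraries was chosen after seeing the data. No paired analysis was possible because each dose has 1 library and no result comes from a test. Depth limits the genes under 10 CPM at 90 µM most, where the upper bound of an interval was a median of 1.91 times the lower.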

Other observations

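The largest single-library steps at 90 µM lay outside the set, in genes whose lower libraries were too uneven for it. They were picked after their values were seen. LOC116210895 had 20, 6, 11 and 396 counts at 0, 30, 60 and 90 µM, and LOC116195673 had 19, 11, 9 and 327. LOC116202844 had 9, 30, 36 and 428 counts, and LOC116202823 had 8, 17, 20 and 234. On CPM + 0.1 their ratios over the highest other library were 14.9, 12.9, 11.8 and 11.0, against 6.12 for LOC116187411, the largest in the set. All 4 have few counts below 90 µM, where a handful of reads decides whether the evenness limit is met.

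LOC116206805 had 256, 30, 265 and 3374 counts from the lowest dose to the highest. It was 10.9 times higher at 90 µM than in the highest other library, while its 30 µM level stood far below both water and 60 µM. LOC116194361 had 1, 19, 289 and 1294 counts, higher at each dose than at the one below, with a ratio of 4.74. LOC116206805 and LOC116194361 were also picked after their values were seen.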
